A study of Mus musculus with 2 samples.

Results

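Muscle satellite cells were identified in single-cell RNA sequencing (scRNA-seq) of the temporomandibular joint (TMJ), the joint of the lower jaw. They were chosen by measured values. A droplet barcode had at least 2 unique molecular identifiers (UMIs, each counting 1 captured transcript) over Pax7, Myf5 and Myod1, and 0 UMIs of Ptprc, the pan-leukocyte marker, and of Pecam1, the endothelial marker. They numbered 106 of the 10109 cells that passed the filter (500 or more genes, mitochondrial share below 10%), with 78 of 4352 in wild-type (WT) and 28 of 5757 in the Prox1 mutant.

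The study asked how a lymphatic defect alters the inflamed joint. The series held 1 WT library and 1 library of Prox1 mutant mice, which were heterozygous (Prox1+/-), and both groups received complete Freund's adjuvant (CFA), an inflammatory agent injected into the joint. All mice were females of 8 to 10 weeks, C57BL/6 by the labels, and neither the number of mice pooled nor the time from CFA to collection for these libraries was given in the sources used here. No source used here limits the mutation to lymphatic vessels, and the libraries do not include joints without CFA. With 1 library per genotype there is no replicate error, so no test between genotypes was made, and every interval is a 95% interval that covers counting error only.

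Satellite cells are the stem cells of skeletal muscle and lie between a fibre and its basement membrane. Pax7 marks them, Myf5 and Myod1 are the factors that commit them to muscle, and Myog and the fusion genes Mymk and Mymx follow when they differentiate. Notch signalling and the calcitonin receptor Calcr are known to hold them in quiescence, and jaw muscles differ from trunk muscles in the transcription factors that found them.

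All satellite cells together held 596345 UMIs (WT) and 213733 UMIs (mutant). A WT cell had 870 to 26267 UMIs with a median of 7086, and a mutant cell had 3412 to 23443 with a median of 6669.5, against medians of 6997 and 4848 over all kept cells. Depth among satellite cells was therefore similar in both libraries, while the other cells of the mutant library were shallower. The libraries shared 4 barcodes among kept cells and 0 among satellite cells.

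Pax7 carried the selection. It was found in 77 of 78 WT and 28 of 28 mutant cells, Myf5 in 55 and 13, and Myod1 in 13 and 5. The UMIs per WT cell ranged from 0 to 16 with a median of 5 for Pax7, from 0 to 9 with a median of 1 for Myf5, and from 0 to 6 with a median of 0 for Myod1. In the mutant the ranges were 1 to 30 with a median of 6.5, 0 to 7 with a median of 0, and 0 to 2 with a median of 0. The Pax7-positive cells without Myf5 or Myod1 were 17 in WT and 13 in the mutant. Just inside the threshold, 1 WT and 2 mutant cells had exactly 2 UMIs of the 3 genes, and they held 37 and 12 to 30 UMIs of 12 satellite cell genes that the rule did not use (Calcr, Chodl, Chrdl2, Cdh15, Itga7, Vcam1, Sdc4, Fgfr4, Megf10, Heyl, Spry1 and Des). Just outside it, 4 WT and 10 mutant cells had 1 UMI, and they held a median of 13 and 1.5 UMIs of these 12 genes. Without the condition on Ptprc and Pecam1 there were 89 WT and 40 mutant cells, so that condition removed 12.4% and 30.0%. Of the cells it removed, 11 of 11 in WT and 10 of 12 in the mutant had at least 4 UMIs of the 12 genes.

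**Figure D1:**
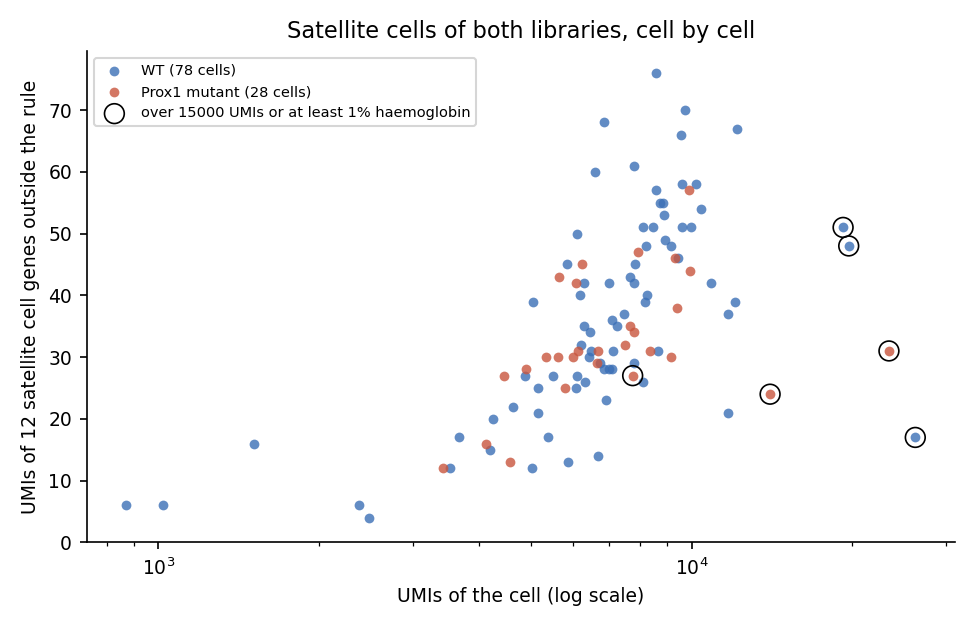
Each point is a satellite cell, with its UMIs on a log axis and its summed UMIs of 12 satellite cell genes outside the rule on the vertical axis. The WT cells hold 4 to 76 of these UMIs and the mutant cells 12 to 57, and the 6 circled cells are those of over 15000 UMIs or with at least 1% haemoglobin.

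A few cells stood apart. A WT barcode of 26267 UMIs had 9 Pax7 UMIs but 0 of Dmd and 0 of Lama2, with 1514 UMIs of Reg3g, 1040 of Wfdc2 and 905 of Tff2, genes of secretory epithelium. A mutant cell of 23443 UMIs held 353 UMIs of Col1a1, Col1a2, Fn1 and Runx2 together. Haemoglobin made up 33.0% and 50.5% of the UMIs of 2 mutant cells. Some values below are therefore also given without the 3 WT and 3 mutant cells of over 15000 UMIs or with at least 1% haemoglobin, a choice made after the data were seen, which left 75 and 25 cells.

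Dmd (GRCm38, chrX:82948870-85206141, plus strand), which encodes dystrophin and was not part of the rule, was found in 74 of 78 WT and 28 of 28 mutant cells. A WT cell had 0 to 55 Dmd UMIs with a median of 19, and a mutant cell had 6 to 50 with a median of 15.5. UMIs were then summed over the cells of a library and scaled to counts per 1000000 UMIs (CPM). There was no division by gene length, since the protocol counts the 3′ ends of transcripts. Whether intronic reads were counted is not given, so levels of different genes may still depend on gene length. On this scale the WT level of Dmd was 2442 CPM (2318 to 2570) and the mutant level 2391 CPM (2188 to 2607), a difference within the counting error, and without the 6 cells that stood apart the log2 ratio of mutant over WT went from -0.03 to 0.02. Dmd is not limited to these cells: mural cells of vessels, chosen by Rgs5 and Myh11, had 2655 and 2744 CPM in WT and mutant, whereas fibroblasts, chosen by Pdgfra, had 62.4 and 76.3 CPM.

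Satellite cells were then set against the other kept cells of the same library, over the 1459 genes with at least 100 UMIs in the satellite cells of both libraries together. These cells were chosen by genes counted in the same barcodes, so the comparison is a description. In both libraries 337 genes, 23.1% of those tested, were at least 2-fold higher in satellite cells, on a scale of CPM plus 5. The minimum is set on the UMIs of the satellite cells themselves, so genes that are high there pass it more readily, and the counts of higher genes are in part fixed by it. A list of 25 known satellite cell genes was chosen with earlier results of these data known, so it is no independent check of identity. Of these 25, all counted whether or not they reached the minimum, 21 were at least 2-fold higher in both libraries. Of the 20 that reached it 19 were, with a median log2 difference of 3.72 against 0.36 over all tested genes. Itgb1, an integrin subunit used by most cells, was the other one, at log2 differences of -0.15 in WT and 0.41 in the mutant.

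The leading genes included surface proteins and receptors known from quiescent satellite cells. Chodl, a lectin-like membrane protein, stood at 745 and 856 CPM in WT and mutant against 8.67 and 2.46 CPM in other cells. Calcr had 310 and 295 CPM in WT and mutant against 0.92 and 0.63 CPM. Fgfr4, a fibroblast growth factor receptor, had 245 and 356 CPM, and Cdh15, the muscle cadherin, had 146 and 197 CPM, each under 1 CPM in the other cells of either library. Chrdl2, a BMP antagonist, had 213 and 356 CPM in WT and mutant, and Heyl, a Notch target, had 317 and 248 CPM. Des, the muscle intermediate filament, had 674 and 590 CPM, and Megf10, an engulfment receptor of satellite cells, had 283 and 243 CPM. The receptor Ror1 was the most abundant of the 20 leading genes in WT, at 2993 CPM, and Pde10a, a phosphodiesterase, was so in the mutant, at 2611 CPM. Hs6st3 and Hs6st2, which sulphate heparan sulphate chains, were both among the 20. Set against fibroblasts and mural cells alone, a comparison added after the data were seen, 239 genes were at least 2-fold higher in place of 337. All 20 leading genes were still higher there, but Ror1 went from a log2 difference of 4.77 to 2.37 and Des from 5.08 to 2.90, each in the library with the smaller one.

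**Figure D2:**
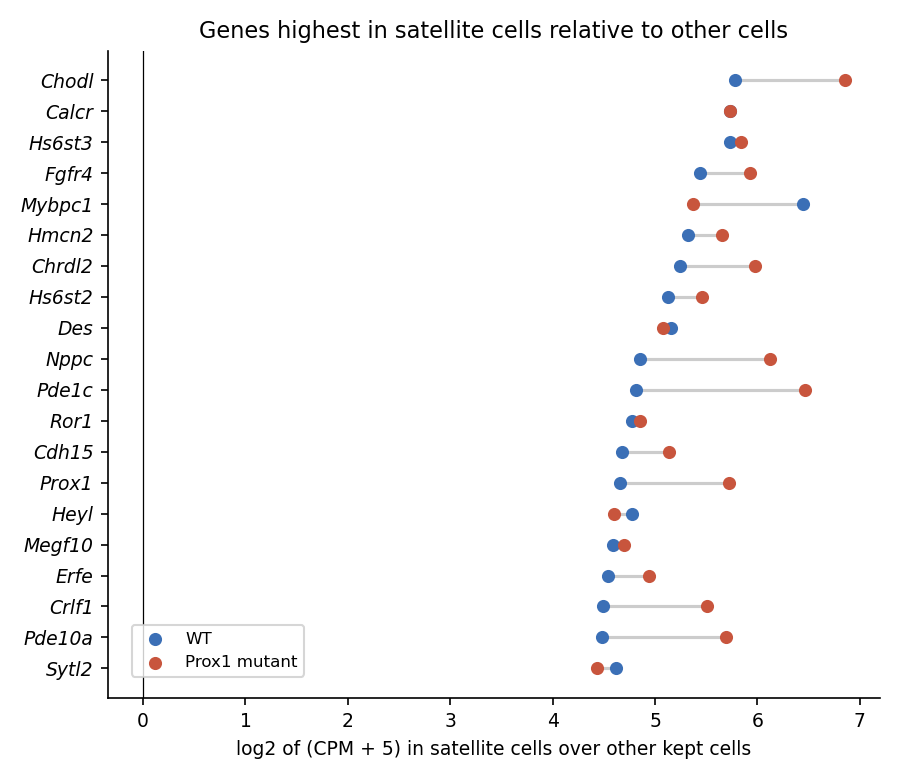
The horizontal axis gives the log2 of CPM plus 5 in satellite cells over the other kept cells of the same library, for the 20 leading genes outside the rule. In both libraries every one of the 20 lies at 4.43 or above, and Prox1 lies at 4.66 in WT and 5.72 in the mutant.

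Myod1 and Myf5 are basic helix-loop-helix factors that bind E-boxes, so the promoters of these 20 genes were read for the E-box letters CAGCTG, which are the same on both strands. RefSeq promoters (GRCm38.p6) were matched for 15 of the 20 genes, and the 250 bases before the start held the letters in 5 of 15, or 33.3%, against 14.7% of 27025 genes. A gene with several starts was counted once if any of its promoters held them, which favours genes with several starts. Pde1c counted on 1 of 3 promoters and Pde10a on 1 of 2. Counted by promoter, the letters were in 5 of 21 for the matched genes, or 23.8%, against 4271 of 32851 for all genes. Whether either share differs from that of all genes was not tested, and 15 genes are few. Stretches of 4 of these promoters are shown because they hold the letters, which are in capitals, written 5′ to 3′ on the strand of the gene. They come from Hs6st3 (chr14:119138015-119138061, plus strand), Mybpc1 (chr10:88605204-88605269, minus strand), Des (chr1:75360226-75360291, plus strand) and Pde1c (chr6:56362811-56362869, minus strand).
Hs6st3: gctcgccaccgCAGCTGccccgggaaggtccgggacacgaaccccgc
Mybpc1: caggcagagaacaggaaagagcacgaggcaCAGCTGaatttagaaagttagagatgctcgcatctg
Des: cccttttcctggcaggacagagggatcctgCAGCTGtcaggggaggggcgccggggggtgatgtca
Pde1c: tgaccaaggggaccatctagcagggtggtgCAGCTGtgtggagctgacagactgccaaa
The letters end 30 bases before the start of Des and 81 bases before that of Mybpc1. A match is a description of these letters and not of a bound site.

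Prox1 (chr1:190118035-190170714, minus strand), the gene altered in the mutant and a regulator of lymphatic endothelium, was among the 20 leading genes of satellite cells. It was found in 57 of 78 WT cells, with 0 to 16 UMIs and a median of 2, and in 22 of 28 mutant cells, with 0 to 30 UMIs and a median of 2. The ranges overlapped, apart from a single mutant cell above the highest WT cell. The WT level was 319 CPM (275 to 367) and the mutant level 468 CPM (381 to 569), with a log2 ratio (mutant over WT) of 0.55 (0.19 to 0.91), against -0.97 in other cells. A single mutant cell held 30 of the 100 mutant UMIs, and without it the mutant level was 340 CPM (265 to 429). That cell also held 30 Pax7 UMIs, the most of any satellite cell. The Prox1 UMIs are 3′ counts, and whether they come from the altered allele was not tested, so they do not check the genotype.

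Satellite cells, few in number, carried a large part of the Prox1 transcripts of all kept cells. They held 190 of 563 Prox1 UMIs of the kept WT cells, 33.7% (29.8 to 37.8), and 100 of 315 in the mutant, 31.7% (26.6 to 37.2). A single mutant cell held 30 of those 100, which the interval does not allow for. Endothelial cells, chosen by Pecam1, held 53.6% and 29.2% of the Prox1 UMIs of kept cells in WT and mutant. Their Prox1 level, taken over blood and lymphatic vessels together, was 38.3 and 21.0 CPM. Haematopoietic cells, chosen by Ptprc, serve as background: 0.656% of WT and 0.161% of mutant ones had a Prox1 UMI at median depths of 13047.5 and 8704 UMIs, against 73.1% and 78.6% of satellite cells at 7086 and 6669.5 UMIs. After thinning to 2000 UMIs per cell, Prox1 was found in 41.3% of 75 WT and 46.4% of 28 mutant satellite cells.

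**Figure D3:**
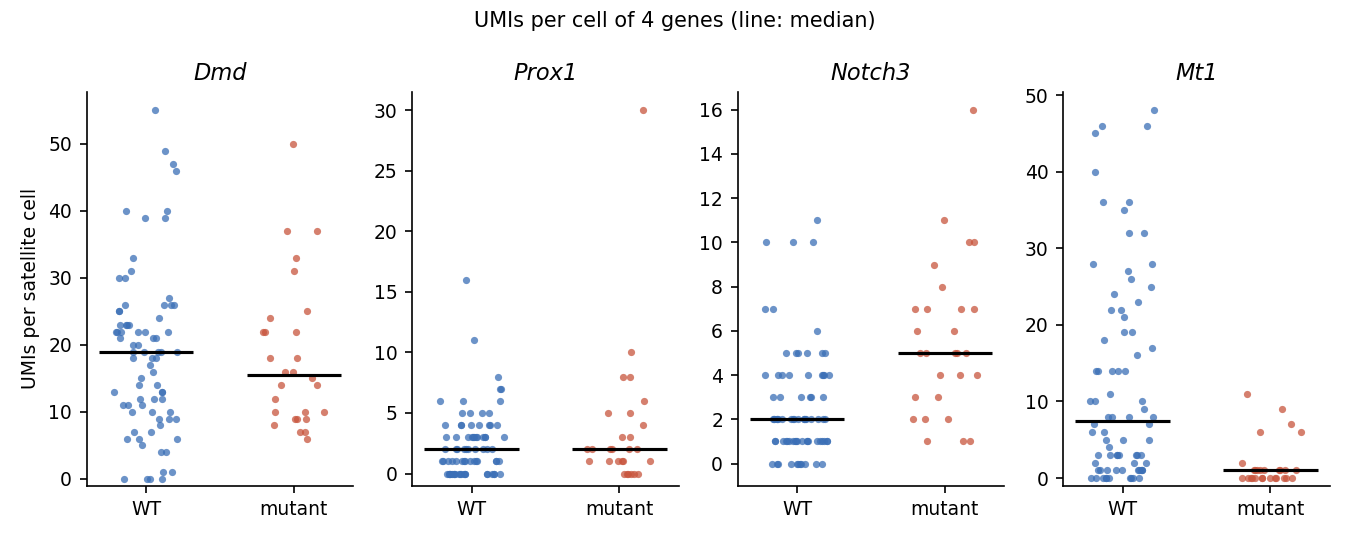
Each point is a satellite cell, with its UMIs of Dmd, Prox1, Notch3 or Mt1 on the vertical axis and the library on the horizontal axis, and the line is the median. The medians in WT and mutant are 19 and 15.5 for Dmd, 2 and 2 for Prox1, 2 and 5 for Notch3 and 7.5 and 1 for Mt1.

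Genes of differentiation were at or near 0. Myog, Mymk, Mymx, Myh3 and Myh8 had 0 UMIs in all 106 cells, and a count of 0 allows up to 3 UMIs, which is 5.03 and 14.0 CPM in WT and mutant. Of 28 genes of the contractile fibre, 10 had 0 UMIs in both libraries, and Acta1 and Ckm had 1 and 2 UMIs in WT. Over all 32285 listed genes only 14555 had a UMI in these cells, so the count of 10 does not set fibre genes apart. Mybpc1, a myosin-binding protein of slow fibres, went the other way with 527 CPM in 61 of 78 WT cells and 313 CPM in 18 of 28 mutant cells. Actn3, the fast-fibre actinin, and Atp2a1, a calcium pump, followed at a much lower level, with 28 and 14 UMIs in WT and 11 and 6 in the mutant. Between the libraries, 3.63% of the 1459 tested genes were at least 2-fold higher in mutant satellite cells and 5.96% at least 2-fold lower. Of 17 commitment genes 2 were tested, and Cdkn1a, a cell cycle inhibitor, was the one past 2-fold, at 203 and 60.8 CPM, a log2 ratio of -1.74 (-2.69 to -0.91).

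Transcripts of the cell cycle were few per cell. A UMI of any of 16 cycle genes was found in 37 of 78 WT and 14 of 28 mutant cells, and 10 or more in 2 WT cells. The 16 cycle genes, none of which reached the 100 UMIs, had 99 UMIs in WT and 25 in the mutant, or 166 and 117 CPM against 884 and 1594 CPM in other cells. Without the 6 cells that stood apart the sums were 90.4 and 119 CPM, so the order of the libraries turned. In WT 2 cells of 19704 and 19232 UMIs held 25 and 24 of the 99, and the mutant cells held 0 to 4 each. Pcna, the clamp of DNA replication, was the most abundant of them, at 33.5 and 37.4 CPM in WT and mutant.

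Immediate early genes were high. The 16 genes of the immediate early and heat shock list summed to 36216 and 33341 CPM in WT and mutant satellite cells, against 8909 and 7157 CPM in other cells, and 9 of the 14 tested were at least 2-fold higher, against 23.1% of all tested genes. Fos, the transcription factor that leads this response, had a median of 63 UMIs per WT cell and 61.5 per mutant cell. Its level was 8205 CPM in WT satellite cells against 1676 CPM in all other cells, among which Fos was high in stromal cells too, with 3933 CPM in mural cells. Fos, Fosb, Jun, Junb and Egr1 made up under 1% of the UMIs in 10 WT and 3 mutant cells, whose median mitochondrial shares were 4.76% and 2.76%, against 2.66% and 2.35% in the other satellite cells. Enzyme digestion of tissue is known to induce these genes, and its part in these levels was not tested.

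The proteins that tie a muscle cell to its basement membrane were well covered. Lama2, the laminin chain of muscle, had 0 to 58 UMIs per WT cell with a median of 13 and 1 to 41 per mutant cell with a median of 7. Its level was 2061 and 1347 CPM in WT and mutant, with a log2 ratio of -0.61 (-0.80 to -0.43) in satellite cells and -1.14 in other cells. Dag1, dystroglycan, had 860 and 1245 CPM, a ratio of 0.53 (0.31 to 0.75). None of the 5 tested genes of the dystrophin complex was past 2-fold between the libraries. Of all tested genes 3.63% were higher and 5.96% lower in the mutant, so a count of 0 of 5 is near those shares. Genes of the neuromuscular junction were present in part: Musk had 169 and 117 CPM, Chrna1 90.6 and 98.2 CPM and Rapsn 65.4 and 60.8 CPM, while the receptor subunits Chrnd, Chrne and Chrng had 0 UMIs.

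Head muscle factors were found at low counts. Eya4 was the most abundant of those listed, with 277 and 234 CPM. Msc and Tbx1, which act in jaw muscle development, had 17 and 5 UMIs in WT and 11 and 2 in the mutant. Tcf21, which acts with Msc there, had 11 UMIs in WT (18.4 CPM) and 0 in the mutant, where a count of 0 allows up to 14.0 CPM. Of 14 trunk and limb genes, 12 had 0 UMIs in both libraries, among them Pax3, Meox1, Meox2 and the Hox genes listed, and Tbx15 held 19 and 6 of the 20 and 6 UMIs of that list. A count of 0 is common, since 14555 of all 32285 listed genes had a UMI in these cells. Whether this list differs from that share was not tested.

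Pdgfra, Myh11, Sox10 and Cldn5, the defining markers of fibroblasts, smooth muscle, Schwann and endothelial cells, had 0 UMIs in both libraries. The 8 fibroblast genes still summed to 1560 and 2236 CPM in WT and mutant, led by Dcn with 840 CPM in WT and Col3a1 with 1235 CPM in the mutant, and to 1659 and 1472 CPM without the 6 cells that stood apart, so the order turned. The 8 mural genes summed to 610 and 482 CPM, led by Acta2. The 8 neutrophil genes summed to 280 and 618 CPM, led by S100a9, and the 8 macrophage genes to 241 and 187 CPM, led by Lyz2, against 15956 and 24330 CPM and 9774 and 6972 CPM in other cells. Endothelial genes summed to 116 and 154 CPM, most of it Tek at 109 and 122 CPM. Lymphoid genes summed to 6.71 and 14.0 CPM, and adipocyte genes to 98.9 and 42.1 CPM. Genes of cartilage and bone summed to 97.3 and 646 CPM, led by Runx2 at 31.9 and 473 CPM, with 91 of its UMIs in a single mutant cell, and the sums were 79.1 and 148 CPM without the 6 cells. Haemoglobin and other erythroid genes summed to 366 and 46249 CPM, and to 386 and 1062 CPM without the 6 cells. The part of these transcripts in the other results was not tested.

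Satellite cells were 1.79% (1.42 to 2.23) of kept WT cells and 0.486% (0.323 to 0.702) of kept mutant cells, a difference of -1.31 percentage points (-1.77 to -0.892) and 3.69 times (2.37 to 5.90) as many in WT. The mutant share was below the WT share under each of 12 other settings, in the range of 1.60 to 3.97 times. The ratio was smallest among cells with 0 Ptprc UMIs and under 1% haemoglobin, which leaves out blood cells: 78 of 2589 in WT, 3.01% (2.39 to 3.75), and 26 of 1385 in the mutant, 1.88% (1.23 to 2.74), or 1.60 times (1.02 to 2.61). These denominators are 2589 of 4352 kept WT cells and 1385 of 5757 kept mutant cells, so the size of the difference depended on whether blood cells were counted. A share of cells does not tell fewer satellite cells from more of the other cells, and the amount of muscle taken with each joint cannot be told apart from the genotype.

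**Figure D4:**
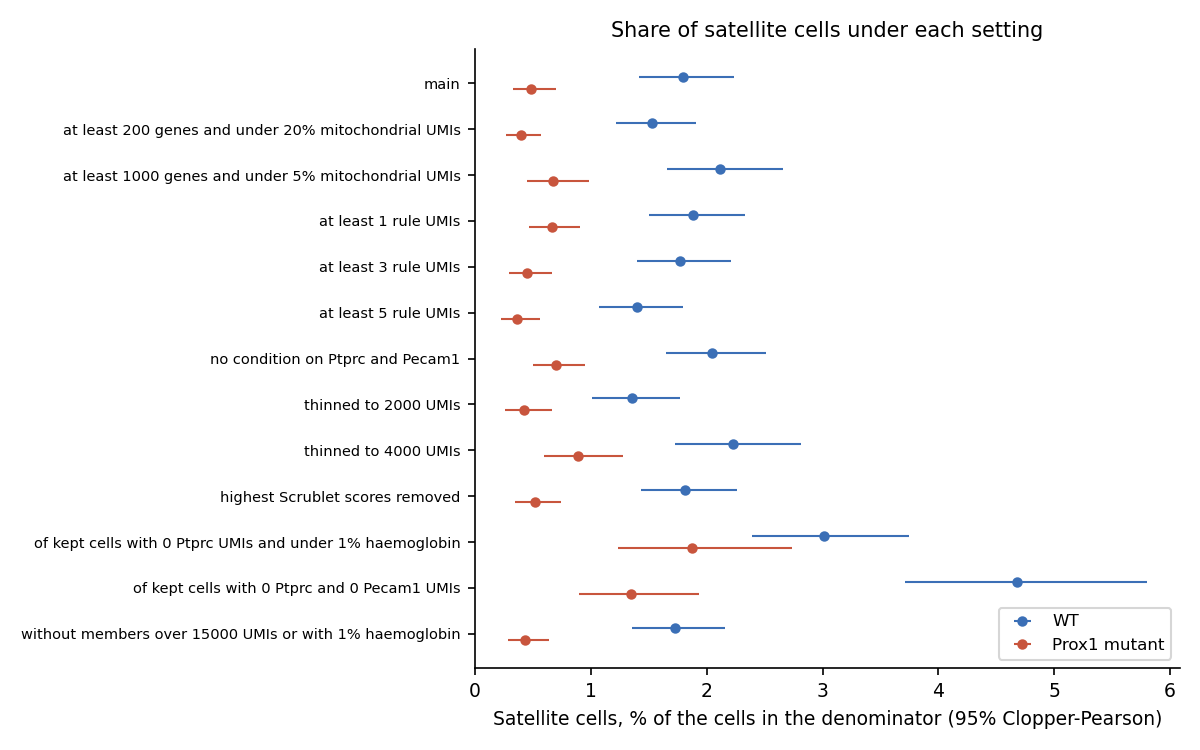
The horizontal axis gives satellite cells as a percentage of the cells in the denominator, with 95% Clopper-Pearson intervals, for the main rule (top) and 12 other settings. The mutant point lies below the WT point in each setting, and the intervals overlap for cells with 0 Ptprc UMIs and under 1% haemoglobin.

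The genes past 2-fold between the libraries were 53 of 1459 (3.63%) higher in mutant satellite cells and 87 (5.96%) lower, with a median log2 ratio of -0.06, or 0.01 without the 6 cells that stood apart. Of the 20 tested satellite cell genes, 1 was higher and 2 were lower, with a median of -0.13, or 0.04 without the 6 cells. Notch3, a Notch receptor, was the higher one, and Sdc4, a heparan sulphate proteoglycan, and Tenm4, a teneurin, were the lower ones.

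Notch3 (chr17:32120820-32166852, minus strand) had 0 to 11 UMIs per WT cell with a median of 2, and 1 to 16 per mutant cell with a median of 5. The mutant cells tended to hold more, though the ranges overlapped. Its level was 340 and 730 CPM in WT and mutant, a log2 ratio of 1.10 (0.79 to 1.41), and it was 46.3 and 42.9 CPM in other cells. Without the mutant cell of 16 Notch3 UMIs, the same cell that held the most Prox1 UMIs, the mutant level was 680 CPM. The log2 ratio was then 0.998, just within 2-fold, and it was 1.06 without the top cell of each library. Notch3 is not limited to satellite cells, since mural cells had more, at 899 and 918 CPM. After thinning to 2000 UMIs it was found in 45.3% of WT and 67.9% of mutant satellite cells. Of the 6 tested Notch genes Notch3 was past 2-fold, against 3.63% of all tested genes higher and 5.96% lower. The median of the 6 was 0.40. Without the 6 cells that stood apart 2 were past 2-fold, Notch3 and Rbpj, and the median was 0.62. Of all 1241 genes tested without those cells, 44 were higher and 66 lower. Heyl was at -0.35 (-0.82 to 0.09), Notch1 at 0.00 (-0.61 to 0.58) and Rbpj, the DNA-binding partner of Notch, at 0.80 (0.33 to 1.26). Hes1, a Notch target under the 100 UMIs needed, had 44 UMIs in WT and 47 in the mutant, or 73.8 and 220 CPM.

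The metallothioneins Mt1 and Mt2, which are on the inflammatory list, were lower in the mutant cells. Of 8 tested inflammatory genes, 4 were at least 2-fold lower and 0 higher, against 5.96% and 3.63% of all tested genes, with a median log2 ratio of -0.87. Without the 6 cells that stood apart Mt1 and Mt2 were the 2 still past 2-fold. Mt1 (chr8:94179082-94180327, plus strand), a metal-binding stress protein, had 0 to 48 UMIs per WT cell with a median of 7.5 and 0 to 11 per mutant cell with a median of 1. Its level was 1623 and 234 CPM in WT and mutant, a ratio of -2.79 (-3.23 to -2.38), against -0.98 in other cells. After thinning to 2000 UMIs it was found in 78.7% of WT and 28.6% of mutant satellite cells. Mt2 was at 696 and 117 CPM. Cxcl1, a neutrophil chemokine, had 453 and 211 CPM, and Nfkbia, the inhibitor of NF-kB, had 713 and 313 CPM, and their ratios went to -0.92 and -0.97 without the 6 cells, within 2-fold. Stat3 and Socs3, which act in interleukin 6 signalling, were at -0.50 (-0.72 to -0.27) and -0.43 (-0.74 to -0.13), within 2-fold.

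Among genes found in at least 10 cells, leaving out those of which 1 cell held over 25% of the UMIs of a library with at least 20, the 10 with the lowest ratio were Rpl29, Cp, Mt1, Abtb2, Fkbp5, Pdlim1, Cebpb, 2410006H16Rik, Adarb1 and Kansl1l. Cp (chr3:19957054-20009145, plus strand), ceruloplasmin, the copper-carrying ferroxidase, had 0 to 54 UMIs per WT cell with a median of 1 and 0 to 3 per mutant cell with a median of 0. Its level was 667 and 84.2 CPM in WT and mutant, a ratio of -2.99 (-3.76 to -2.31), with -0.08 in other cells. The other cells were not alike, since mural cells had 141 and 40.3 CPM in WT and mutant whereas fibroblasts had 196 and 226 CPM. Cebpb, a transcription factor of the acute phase response, had 951 and 178 CPM, a ratio of -2.42 (-2.93 to -1.94), with -0.58 in other cells. Fkbp5, a glucocorticoid-induced chaperone partner, had 262 and 42.1 CPM, a ratio of -2.64 (-3.79 to -1.67), with -1.35 in other cells. Abtb2 was at -2.73 in satellite cells and -0.01 in other cells.

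Rpl29, a ribosomal protein gene, differed in the whole library. It had 439 UMIs in WT satellite cells and 2 in the mutant, a ratio of -6.30 (-9.35 to -4.44), and the ratio in other cells was -5.35. Over all kept cells 70.2% in WT and 9.80% in the mutant had a UMI of it. The cause of this difference was not tested. Rpl29 has near-identical copies in the genome, and whether these bear on its counts was not tested.

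By the same conditions, which leave out genes such as Col1a1 and Hbb-bs, the 10 with the highest ratio were Gm10076, Gm47283, Nppc, mt-Nd3, Naaladl2, Immp2l, Pgm5, Dpt, S100a9 and Pde1c. Nppc, which encodes C-type natriuretic peptide, had 159 CPM in 30 of 78 WT cells and 426 CPM in 23 of 28 mutant cells, a ratio of 1.42 (0.99 to 1.85), with about 1 CPM in other cells of either library. Without the mutant cell of 22 Nppc UMIs the mutant level was 338 CPM and the log2 ratio 1.08. Pde1c, a phosphodiesterase, had 431 and 978 CPM, a ratio of 1.18 (0.91 to 1.45), with -0.78 in other cells. Dpt, dermatopontin, a matrix protein, was at 1.25 (0.87 to 1.63) in satellite cells and 0.03 in other cells. Gm10076 was higher in other cells as well, at 1.88 against 1.64 in satellite cells, and S100a9 was at 0.78 against 1.24.

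**Figure D5:**
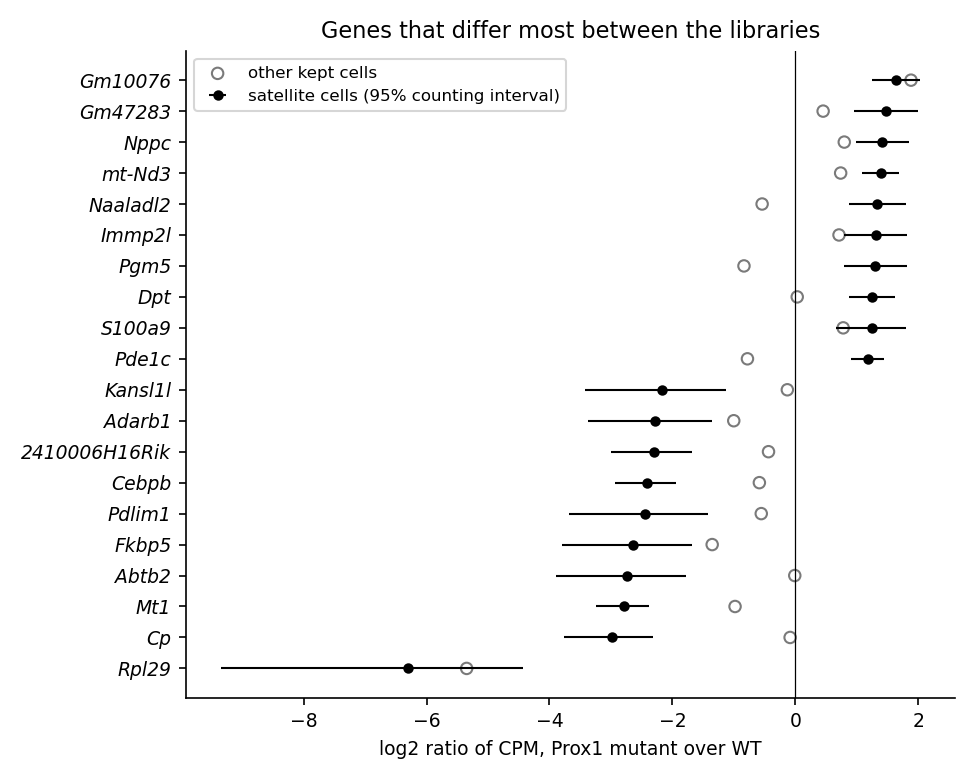
Black points give the log2 ratio of CPM, mutant over WT, in satellite cells with 95% counting intervals, and open circles give the same ratio in the other kept cells, for the 10 genes with the lowest and the 10 with the highest ratio under these conditions. Rpl29 lies at -6.30 and -5.35, and Cp lies at -2.99 in satellite cells and -0.08 in the other cells pooled, among which mural cells were also lower in the mutant.

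Some list differences rested on single cells. Of 14 tested matrix genes, 7 were at least 2-fold higher in the mutant and 0 lower, against 3.63% and 5.96% of all tested genes, with a median of 0.81. Without the 6 cells that stood apart 2 were higher and the median was 0.03. Col1a1, a collagen of bone and fibrous tissue, had 94 mutant UMIs in 3 cells, of which 1 cell held 91, and its ratio of 2.01 (1.54 to 2.49) turned to -0.85 without the 6 cells. In WT a single cell held 48 Col1a1 UMIs. Without the top cell of each library 17 WT and 3 mutant UMIs were left, too few to settle the sign. Col3a1, a fibrillar collagen, went from 1.56 to 0.03. The 4 tested haemoglobin genes were all at least 2-fold higher, 3 of them without the 6 cells, and Hbb-bs went from 7.20 to 1.80 without them. Immediate early genes were close in both libraries, with 1 of 14 tested lower, a share near the 5.96% of all tested genes, and a median of -0.13. Atf3, a stress-induced factor, was the lower one, at 1216 and 454 CPM. Of 3 tested interferon genes 1 was lower, Gbp2, at 255 and 108 CPM, and of 6 tested growth factor genes none was past 2-fold.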

How the data were processed

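Cells of 2 libraries were sequenced by droplet scRNA-seq. Alignment to GRCm38 (mm10) used Cell Ranger 7.0.1, and the authors deposited UMI counts per gene and barcode without normalization. The number of mice pooled, the use of intronic reads and doublet removal are not given in the sources used here. The labels and the methods of the study differ on the reagent version and the digestion enzyme. Cells were kept at the thresholds of the study's methods. The satellite cells and the gene lists were chosen with earlier results of these data known.

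UMIs were summed over cells and scaled to CPM. Intervals at 95% are Poisson for CPM, Clopper-Pearson for shares, Newcombe for differences of shares and conditional binomial for ratios. A gene at 0 in a library was set to 3 UMIs for counting genes past 2-fold. Enriched genes named are the 20 with the highest value of the smaller of both log2 ratios, with a UMI in at least 25% of the cells of each library. Differences named are the 10 highest and 10 lowest ratios among genes found in at least 10 cells, leaving out genes of which 1 cell held over 25% of the UMIs of a library with at least 20. Prox1 and other listed genes were named from the fixed lists. Scrublet in scanpy 1.11.5 called 0 of 5469 and 0 of 7603 barcodes automatically, so its calls were not used and no doublets were removed; as an alternative the 239 and 462 highest scores were removed, which held 2 and 0 satellite cells. Python 3.11.15 and scipy 1.17.1 were used. The ratio step was tested on simulated data, which covers counting error only and says nothing of differences between mice. Gene positions and promoters come from GENCODE M21 and RefSeq. Some listed genes, and results that rest on them, are not reported here.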

Additional observations from a re-analysis of the deposited data

How the results depend on the processing

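The share of satellite cells was lower in the mutant under all 12 alternatives, with the difference in percentage points within its counting interval in 11 of them. Of cells with 0 Ptprc and 0 Pecam1 UMIs the difference was -3.34 percentage points, where the smaller denominator raises both shares and the ratio of WT over mutant was 3.48. As a ratio, the main value of 3.69 (2.37 to 5.90) fell outside its interval, to 1.60, among cells with 0 Ptprc UMIs and under 1% haemoglobin. The counts of genes past 2-fold in the mutant, 53 higher and 87 lower, were 240 and 341 with a minimum of 30 UMIs and 1193 and 1125 with no minimum beyond 1 UMI, where more genes of low count are tested. Without the cell with the most UMIs of each gene, 26 were higher and 126 lower. For each gene this removes 1 of 28 mutant cells against 1 of 78 WT cells, which lowers mutant levels more by construction. The median log2 ratio went from -0.06 to -0.21, so these counts do not measure dependence on single cells alone. Scaling by the median of the ratios gave 66 higher and 73 lower. Col1a1 reversed to -1.02 without its top cells and to -0.85 without the cells of over 15000 UMIs or with 1% haemoglobin. With the top cells also left out of the totals the first value was -0.90. Only 17 WT and 3 mutant Col1a1 UMIs were then left, at 29.5 CPM (17.2 to 47.2) and 15.8 CPM (3.25 to 46.1). These intervals overlap, so the reversed sign is not settled. Col3a1 reversed to -0.036 without its top cells, smaller in size than the median of -0.21 under that setting. Of 203 log2 ratios of 29 genes, recomputed under the 7 settings that can change them, 193 stayed within the counting interval and 3 reversed, those just given. The count of 337 enriched genes was 239 against fibroblasts and mural cells alone and 347 with a pseudocount of 1 CPM. Thinning to 2000 UMIs lowered the share of cells with a UMI, by construction, to 41.3% for Prox1 and 45.3% for Notch3 in WT, and to 46.4% for Prox1, 67.9% for Notch3 and 28.6% for Mt1 in the mutant. No paired analysis was possible because each genotype has 1 library. With 1 library per genotype the error between mice cannot be estimated, and the 28 mutant cells leave wide counting intervals for genes of few UMIs.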

Other observations

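Several growth factor receptors were found in these cells. Egfr, the epidermal growth factor receptor, had 741 and 543 CPM in WT and mutant cells, against 115 and 71.2 CPM in other cells, but fibroblasts had 540 and 429 CPM of it. Fgfr1 was at 634 and 557 CPM against 126 and 88.1 CPM. Igf1r, the receptor of insulin-like growth factor 1, had 475 and 510 CPM against 275 and 284 CPM, under 2-fold. Of the ligands, Hgf had 0 UMIs in WT and 1 in mutant satellite cells, and Fgf7 and Mstn, myostatin, had 0 in both libraries. Vegfc, the lymphatic growth factor, had 53 UMIs in 27 of 78 WT cells and 15 in 7 of 28 mutant cells, or 88.9 and 70.2 CPM, against 30.0 and 33.0 CPM in other cells, while its receptor Flt4 had 0 UMIs in both.

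The long non-coding RNA Meg3 was at 1298 and 1675 CPM in WT and mutant satellite cells, against 164 and 115 CPM in other cells. Stromal cells had more of it than the pooled value, with 562 and 609 CPM in WT and mutant fibroblasts and 410 CPM in WT mural cells. Malat1, a nuclear RNA, was at 23890 and 35891 CPM, a log2 ratio of 0.59 (0.55 to 0.63), within 2-fold. Outside the cell filter, 1 of 1357 WT and 1 of 2089 mutant barcodes met the UMI rule.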
